A study of Mus musculus with 6 samples.

Results

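The genes described here are 37 mouse genes of excitatory synapses, most of them known from the receiving side: subunits of AMPA, kainate and delta glutamate receptors, metabotropic glutamate receptors, and the scaffold proteins of the postsynaptic density. They were taken by name from the authors' annotated list of differentially methylated regions, in every cytosine context, and rows for the same interval and context were merged into 1 region. This gave 68 regions of the 9707 in the whole list. Of the 37 genes, 26 had at least 1 region and 11 had none (Gria1, Cacng2, Grik3, Grik5, Grm6, Dlg3, Dlgap4, Homer3, Arc, Sorbs2 and Nrgn).

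The list compares 3 embryos of a normal group (replicates 1, 2 and 4) with 3 of a depressed group (replicates 1, 3 and 4). All grew from fertilised eggs of C57BL/6 background that were microinjected with sperm small RNAs at 2 ng/µl and collected about 108 h later, at embryonic day 4.5. The RNA came from normal males in the normal group and from males with stress-induced depression in the depressed group. Each embryo was lysed whole, so a level mixes its cell types, and an uninjected group was not analysed here. The number of males behind the RNA and the kind of stress were not given in the sources used here. The series asks whether the father's state, carried by sperm small RNA, shows in the DNA methylation of the embryo.

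Whole-genome bisulfite sequencing reads unmethylated cytosine as thymine once it is converted, and methylated cytosine as cytosine. Unmethylated cytosine left unconverted would read as methylated too. For each region the authors' deposited table gives 1 mean level per group in a context (CG, or CHG and CHH, in which H is A, C or T), here in percent. It gives 0 columns of values per embryo, no read counts and no conversion rate, so incomplete conversion could not be checked. Every level below is therefore the authors' group mean without a spread, at unknown depth, and differences could not be set against the spread among embryos. "Lower" and "higher" mean lower or higher in the depressed group, and where levels are paired with "against", the depressed group comes first and the normal group second. The table measures no expression, so the identity of the embryos could not be checked against marker genes. Of 19 genes that mark the lineages of the blastocyst, 7 had a region (36.8%, compared with 18.0% of all protein-coding genes), and these went in both directions. Sox2, Krt8 and Krt18 had lower regions alone, such as Sox2 at 0.749% against 62.3% in CHG context, while Cdx2, Dab2, Elf5 and Pdgfra had higher ones alone, such as Cdx2 at 15.6% against 0.0364% in CHG context.

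As background, glutamate released by one neuron opens AMPA and kainate receptors, which are ion channels, and acts on metabotropic receptors, which signal through G proteins. Below the membrane, DLG proteins hold receptors in place, DLGAP proteins join DLG to SHANK, and Homer proteins join SHANK to metabotropic receptors. These genes are best known from neurons, which an embryo before implantation does not have. Methylation outside CG is abundant in mature neurons and scarce in most other mammalian cells.

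In these genes, nearly all regions over exons or untranslated regions (UTRs) were lower in the depressed group, and most other regions were higher. Of 32 regions that touch an exon or UTR, 31 were lower (96.9%). Of 36 that touch neither, 4 were lower (11.1%) and 32 were higher. With group means at least 10 points apart, 27 exon or UTR regions remained, 100% of them lower, and 8 others, 37.5% of them lower. The whole list was divided in the same sense, with 2630 of 2904 exon or UTR regions lower (90.6%) and 1367 of 6803 others (20.1%), so the division is not called particular to these genes. Regions of 1 gene share their source, and no test over regions was made.

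**Figure D1:**
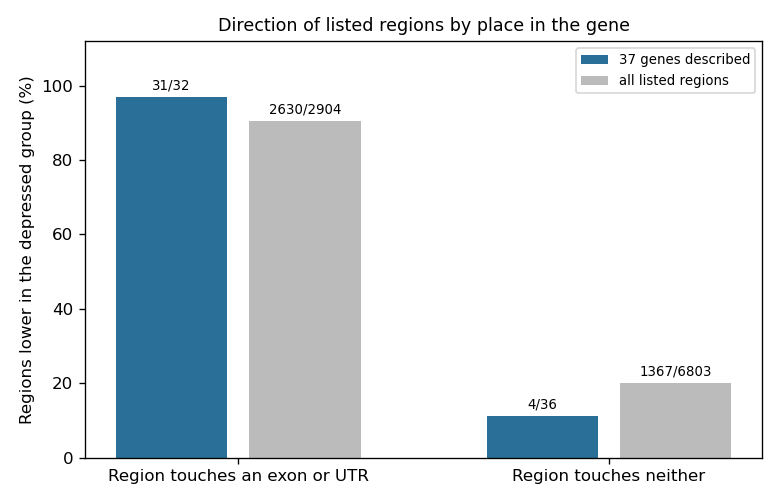
Share of listed regions lower in the depressed group (vertical axis, percent), for regions that touch an exon or UTR and for those that touch neither. Bars show the 37 genes described (31 of 32 and 4 of 36) and all listed regions (2630 of 2904 and 1367 of 6803), so that both sets are mostly lower in exons and UTRs and mostly higher elsewhere.

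The 3 contexts held very different numbers of regions. CG context held 1 of the 68, CHG held 20, all lower, and CHH held 47, of which 14 were lower and 33 higher. The 35 lower regions, in 17 genes, differed between the group means by 5.07 to 82.7 percentage points, with a median of 33.7. The 33 higher ones, in 16 genes, differed by 2.09 to 32.8 points, with a median of 3.65. Most lower regions were thus large differences from a high level in the normal group, and most higher regions were small differences from a level near 0.

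Such counts need the share of all genes with a region, and long genes offer more room for one. Of 21900 protein-coding genes, 18.0% had a region of any context, as had 55.9% of those that span 100 kb or more. Among the members these shares were 26 of 37 (70.3%) and, for those of 100 kb or more, 18 of 23 (78.3%). A lower CHG region was listed for 13 members (35.1%), compared with 6.40% of all genes and 15.1% of long ones, and a lower CHH region for 11 members (29.7%), compared with 5.37% and 14.8%. A higher CHH region was listed for 16 members (43.2%), compared with 9.11% and 41.2%. The 23 long members had one in 15 cases (65.2%) and the 14 shorter ones in 1 case, Dlgap3. A lower CG region was listed for 1 member, compared with 2.54% of all genes and 7.95% of long ones, and a higher CHG region for 0, compared with 0.758% and 1.48%. Per Mb of gene span, the members carried 2.80 higher CHH regions, compared with 2.72 over all protein-coding genes, and 2.89 lower CHG and CHH regions, compared with 2.94. Counted by span, the members were thus near the background. Their median span was 151 kb, compared with 17.1 kb over all protein-coding genes. Span counts introns too, while 31 of the members' 35 lower regions touch an exon or UTR. Counted by gene, shares were higher in long members than in long genes for most kinds of region. For any region they were 78.3%, compared with 55.9%, and for a higher CHH region 65.2%, compared with 41.2%. Shares went the other way for a lower CG region (4.35%, compared with 7.95%) and a higher CHG region (0%, compared with 1.48%). Of the 23 long members, 7 had a lower CHG region (30.4%, compared with 15.1%) and 6 a lower CHH region (26.1%, compared with 14.8%). Of the 14 shorter ones, 6 and 5 had one (42.9% and 35.7%, compared with 6.40% and 5.37% of all genes). Shares over protein-coding genes under 100 kb were not counted, for these or for higher CHH regions. None of these differences was tested.

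Among the AMPA receptor genes, Gria2 carried most regions. Its product is the subunit that, after RNA editing, keeps calcium out of the channel. At the 5′ end (build mm10, which is GRCm38; promoter, exon and 5′ UTR; chromosome 3, 80802479 to 80802668) the CHG level was 0.33% against 77.1%. In the authors' deposited table its statistic of -359 ranks 19 by size among the 1884 CHG regions. A CHH region over the same end, with an intron entry as well (80800588 to 80802706), stood at 0.422% against 49.8%, with 50 cytosines in 2119 bp. Both overlap RLTR20A4, a retroviral repeat. At the 3′ UTR, the level was 0.0839% against 67.5% in CHG (80682032 to 80682100) and 0.217% against 69.2% in CHH context (80682033 to 80682103). The ends of the gene were thus low in the depressed and high in the normal group, while 2 intronic regions between them were higher in CHH context, at 7.43% against 1.71% and 3.44% against 0.75%. The smallest distance between a lower and a higher region was 8.82 kb.

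Gria2, Homer1 and Ppp1r9b are the 3 members whose lower regions carry a promoter entry, and the sequence before each start is shown to place these regions. RefSeq windows of 300 bases around a transcription start (GRCm38.p6) were at hand for 27 of the 37 genes, 43 windows in all, and 0 of them overlapped a region listed for its gene. This overlap was not counted over the windows of all genes, so it is not called particular to the members. For each of the 3 genes the window shown is the one nearest to its lower regions, which lie downstream of it, and it is printed 5′ to 3′ along the gene with each CG in capitals.
Gria2, chr3:80802786-80803085, minus strand: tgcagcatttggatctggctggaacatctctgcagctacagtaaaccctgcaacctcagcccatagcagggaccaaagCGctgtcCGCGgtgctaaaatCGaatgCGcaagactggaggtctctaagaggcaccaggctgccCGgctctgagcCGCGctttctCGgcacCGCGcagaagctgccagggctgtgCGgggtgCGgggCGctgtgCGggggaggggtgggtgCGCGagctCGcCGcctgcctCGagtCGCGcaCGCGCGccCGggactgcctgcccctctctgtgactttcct
Homer1, chr13:93303507-93303806, plus strand: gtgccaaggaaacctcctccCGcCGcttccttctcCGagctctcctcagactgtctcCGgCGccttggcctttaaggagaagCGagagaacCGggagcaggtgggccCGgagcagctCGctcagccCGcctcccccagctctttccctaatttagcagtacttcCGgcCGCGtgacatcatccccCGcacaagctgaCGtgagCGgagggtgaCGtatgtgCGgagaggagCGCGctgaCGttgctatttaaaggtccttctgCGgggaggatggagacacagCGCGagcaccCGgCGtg
Ppp1r9b, chr11:94990962-94991261, plus strand: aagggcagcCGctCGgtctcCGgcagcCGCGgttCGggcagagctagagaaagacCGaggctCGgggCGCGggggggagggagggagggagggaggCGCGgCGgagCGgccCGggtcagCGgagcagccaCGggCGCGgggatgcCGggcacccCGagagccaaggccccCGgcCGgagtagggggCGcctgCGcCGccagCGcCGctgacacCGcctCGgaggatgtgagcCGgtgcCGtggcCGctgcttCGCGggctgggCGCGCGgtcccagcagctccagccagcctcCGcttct

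The letters CG, which read the same on both strands, occur 26 times in the Gria2 window, 26 times in the Homer1 window printed and 39 times in that of Ppp1r9b. Of all 32851 RefSeq windows 94.6% hold at least 1 CG, with a median of 7, and 16.9% hold 26 or more and 4.45% hold 39 or more. The nearest listed region begins 79 bases past the Gria2 window, 424 past that of Homer1 and 474 past that of Ppp1r9b. A second Homer1 window, not printed, starts 3006 bases past the listed region and holds 7 CG, a number that 52.1% of windows reach. The listed differences next to the 3 printed windows are in CHG and CHH context and none is in CG.

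The other AMPA genes carried little. Gria4 had 1 higher CHH region in an intron, over an IMPB_01 satellite repeat (chromosome 9, 4565476 to 4565852), at 6.95% against 3.77%. Gria3, on chromosome X, had the only exon or UTR region of all members that was higher (41401062 to 41401182; promoter, 5′ UTR, exon and shore of a CpG island), at 6.68% against 0.129% in CHH context. It too lies over a repeat, the retroviral RLTR31D_MM, but the lower regions at the 5′ end of Gria2 overlap a retroviral repeat as well. Gria1 and Cacng2, which encodes stargazin, the auxiliary protein that brings AMPA receptors to the synapse, had no region.

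The kainate and delta receptor genes carried regions in introns alone. Grik4 held the single CG region of the whole group (chromosome 9, 42672355 to 42672501), with 4 CpGs over RLTR20C2_MM, at 1.46% against 79.6%. In the same gene 2 CHH regions were higher, at 3.61% against 0.153% and 12.0% against 0.399%, the nearer of them 22.6 kb away. Grik1 had 2 higher CHH regions, of which the stronger (chromosome 16, 88232316 to 88232709; 191 cytosines) was at 8.47%, against 3.43%. Grik2 had 1 lower CHH region and is 1 of 3 members with a lower CHG or CHH region confined to an intron, at 0.374% against 22.2% (chromosome 10, 49774788 to 49775071). Grid1, the gene of the delta receptor that binds the adhesion partner cerebellin, had 3 higher CHH regions, all over repeats, at 4.18 to 8.59% against 0.351 to 1.41% in the normal group.

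**Figure D2:**
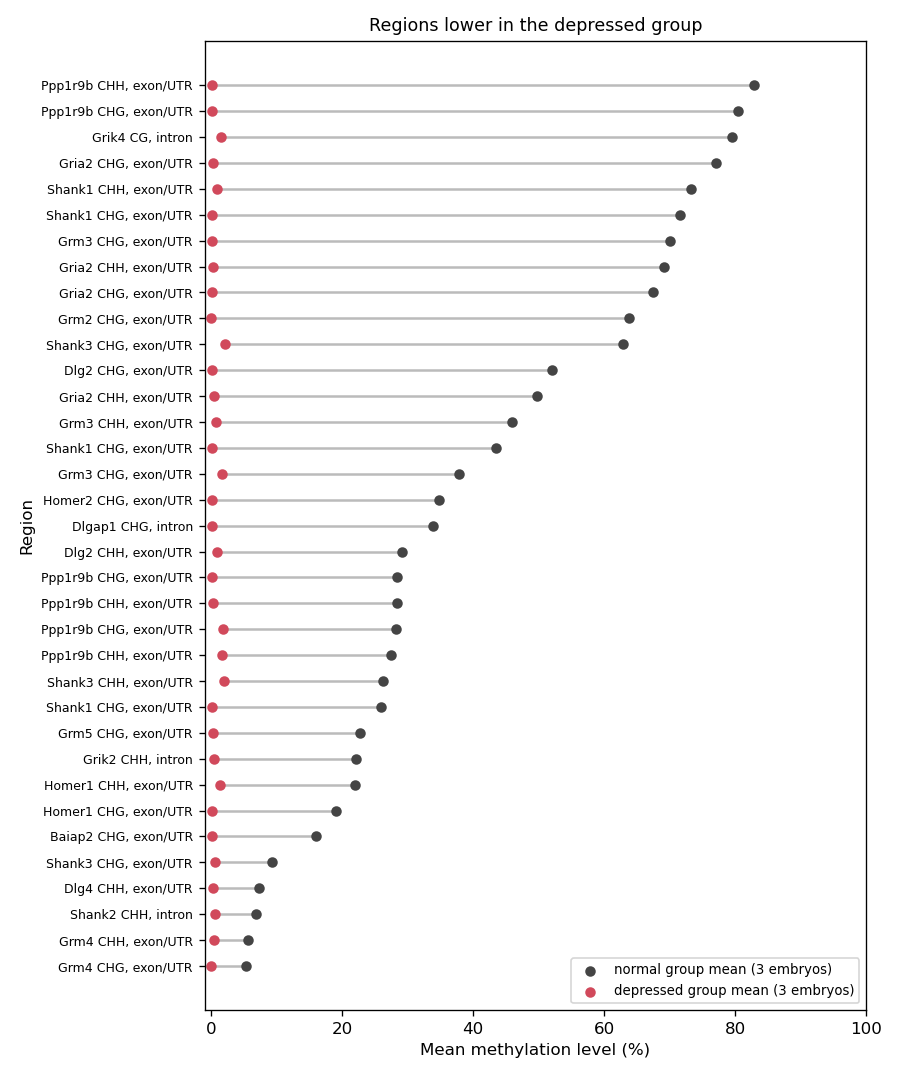
Authors' mean methylation level (horizontal axis, percent) of the 35 regions lower in the depressed group, 1 row per region named by gene, context and place, ordered by the normal level. Points are the means of the normal and depressed groups, which have no error bars because the table has no values per embryo; depressed means lie between 0.0477 and 2.11%, and normal means between 5.29 and 82.8%.

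Metabotropic receptor genes divided by place in the same way. Grm2 and Grm3 encode the pair of receptors that lower cyclic AMP and respond to the same group of drugs. In Grm3 an exon (chromosome 5, 9511854 to 9512337) was at 0.752% against 45.9% over 101 CHH cytosines. Inside it lay 2 CHG regions, at 0.170% against 70.1% and 1.64% against 37.9%. Grm2 had 1 lower CHG region in an exon on the shore of a CpG island (chromosome 9, 106654079 to 106654173), at 0.0477% against 63.8%. That depressed level is the lowest of all member regions, just under that of Grm4.

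Grm4, a receptor of presynaptic terminals, was low in both groups by comparison. Its exon within a CpG island (chromosome 17, 27502642 to 27502937) was at 0.493% against 5.56% in CHH and, over 27502750 to 27502908, at 0.0477% against 5.29% in CHG context. Grm5, the receptor that releases calcium from internal stores and binds Homer, had 1 lower CHG region with 5 cytosines in an exon, at 0.255% against 22.7%. Grm7 and Grm8 had no exon region. Grm7, which spans 922 kb, had 5 higher CHH regions, all in introns, the highest at 17.4% against 0.477% (chromosome 6, 110740701 to 110740817) and the lowest at 4.11% against 1.08%. Grm8 had 1, at 4.15% against 0.850%. Grm3 also had a higher intronic CHH region over repeats (9628931 to 9631213), at 18.5% against 0.30%, and it lies 117 kb from the exon that was lower. Grm6, the receptor of ON bipolar cells of the retina, had no region.

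All 3 SHANK genes, the master scaffolds of the postsynaptic density, had lower regions. In Shank1 the 3′ UTR stood out in both contexts, at 0.899% against 73.3% in CHH (chromosome 7, 44357679 to 44357883) and at 0.0742% against 71.6% in CHG context (44357680 to 44357870). In the authors' deposited table this CHH region has the largest statistic of the members, -1989, rank 46 of 6943. A further exon and a second stretch of the 3′ UTR were lower in CHG, at 0.0928% against 43.4% and 0.102% against 25.9%. In Shank3, whose loss causes a human neurodevelopmental syndrome, a CHH region of 1076 bp over exons and introns (chromosome 15, 89548566 to 89549641) was at 2.02% against 26.2%. Its CHG regions at either end differed, at 2.11% against 62.9% and 0.596% against 9.26%. Shank2 had no exon region; 1 intronic region was lower in CHH, at 0.612% against 6.83%, and 2 were higher, at 4.64% against 0.627% and 2.92% against 0.831%.

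DLG genes encode the scaffolds that anchor receptors, and Dlg4, the best known of them, had 1 region, lower in CHH over an exon and intron, at 0.254% against 7.31%. Dlg2, the longest member with 1973 kb, had 6 regions. Its 3′ UTR was lower in CHG (chromosome 7, 92447498 to 92447569; 0.0845% against 52.1%) and in CHH context (92447430 to 92447567; 0.948% against 29.2%). Its 4 intronic CHH regions were all higher, and that at 91941778 to 91941856 had the highest depressed level of the higher regions, 34.0% against 1.15%. The others were at 13.1% against 4.43%, 4.35% against 1.13% and 3.11% against 0.372%. Dlg1 had 1 higher CHH region in an intron, at 4.08% against 1.46%.

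Among the DLGAP genes, which link DLG to SHANK, Dlgap1 had 4 higher CHH regions in introns, at 2.95 to 5.86% against 0.774 to 1.27% in the normal group. It had 1 lower CHG region in an intron too, at 0.152% against 33.9% (chromosome 17, 70666528 to 70666608), and the nearest higher region lay 6.05 kb away. Dlgap2 had 2 higher CHH regions (8.32% against 5.19% and 2.56% against 0.275%) and Dlgap3 had 1 (4.46% against 0.804%). This family showed 7 of its 8 regions higher, and none of the 8 touches an exon or UTR. Among regions that touch neither, 32 of 36 were higher in the members and 5436 of 6803 in the whole list, so this is not called particular to the family.

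**Figure D3:**
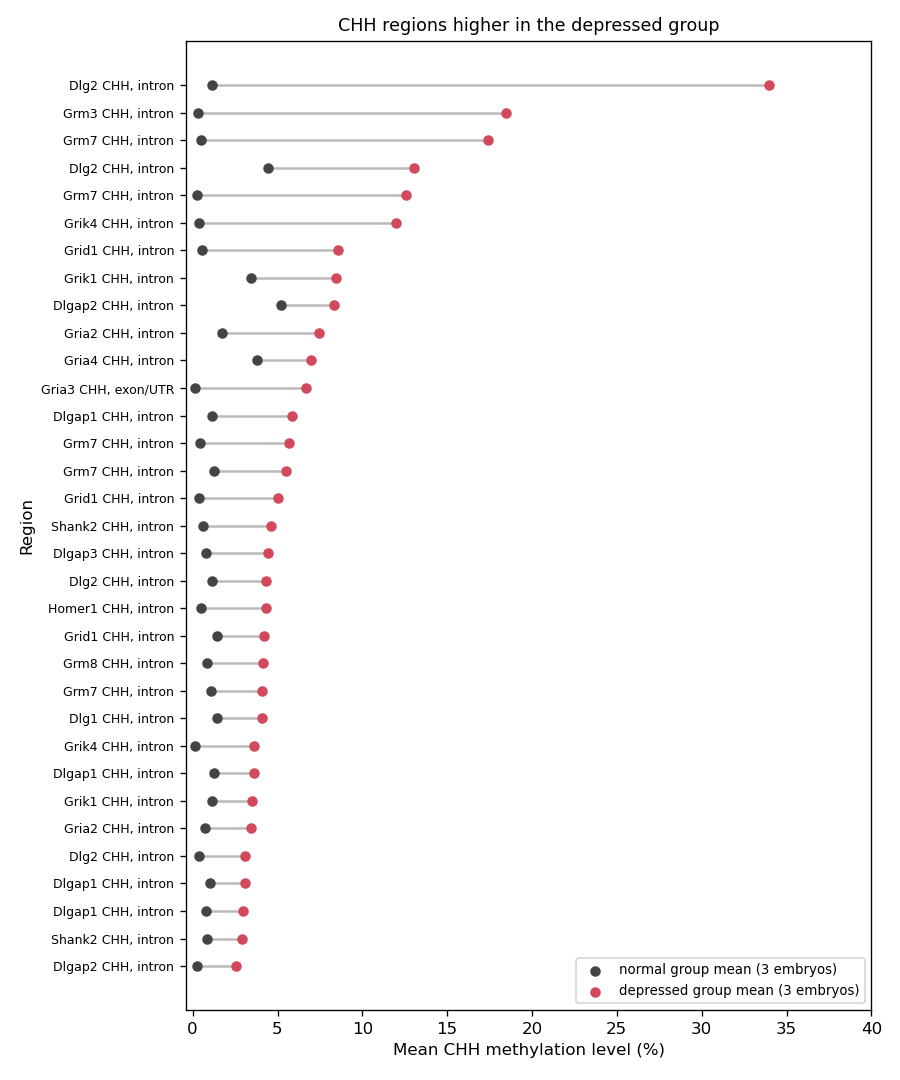
Authors' mean CHH methylation level (horizontal axis, percent) of the 33 regions higher in the depressed group, 1 row per region, ordered by the depressed level. Points are group means without error bars; normal means lie between 0.129 and 5.19%, depressed means between 2.56 and 34.0%, with a Dlg2 intron highest.

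Among the Homer genes and the remaining postsynaptic genes, the listed regions were lower with 1 exception, and Homer3, Arc, Sorbs2 and Nrgn had no region. In Homer1 the 5′ end within a CpG island was at 0.101% against 19.1% in CHG (chromosome 13, 93304249 to 93304321) and at 1.28% against 22.0% in CHH context (93304231 to 93304777). The exception was an intron of Homer1, 35.6 kb from there, at 4.34% against 0.510% in CHH context. Homer2 was lower at its 3′ UTR in CHG context, at 0.108% against 34.9%. Baiap2, which encodes a protein that bends membranes and recruits actin regulators, was lower at its 3′ UTR, at 0.150% against 16.0%.

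Ppp1r9b encodes spinophilin, which brings a protein phosphatase to dendritic spines. It spans 15.7 kb and carried 6 lower regions and no higher one. At the 3′ UTR the level was 0.148% against 82.8% in CHH (chromosome 11, 95005720 to 95005859) and 0.0626% against 80.4% in CHG context (95005722 to 95005856). This pair holds the highest normal levels of all member regions. At the CpG island near the start, downstream of the window printed above, 2 further pairs stood lower. The first was at 1.81% against 28.2% in CHG (94991736 to 94992064) and 1.69% against 27.5% in CHH context (94991739 to 94992033), and the second at 0.108% against 28.3% and 0.283% against 28.3% (94992664 to 94992775 and 94992669 to 94992774).

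Where CHG and CHH regions of a gene overlapped, both were lower. As all 20 CHG regions were lower, only an overlap with a higher CHH region could have differed, and agreement over the whole list was not counted. A lower CHG region was overlapped by 11 of the 14 CHH regions that were lower (78.6%), and 13 of the 20 lower CHG regions overlapped one in CHH context (65.0%). Over the whole list these shares were 54.3% and 48.9%. In 7 of the 13 overlapping pairs the normal level of the contexts differed by under 5 points. Over all 13 pairs the gap had a median of 2.89 points and ran from 0.0187 at Ppp1r9b to 36.7 at Shank3. The 5 widest gaps, 16.9 to 36.7 points, were in Gria2, Dlg2, Shank3 and Grm3. Of the 67 CHG and CHH regions of the members, 0 overlapped a listed CG region. The list held only 880 CG regions, and this share was not counted over the whole list. It is therefore not called particular to these genes. The 7 close pairs are alike in normal level because they were picked by that gap, and their normal CHG levels ran from 5.29% at Grm4 to 80.4% at Ppp1r9b.

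**Figure D4:**
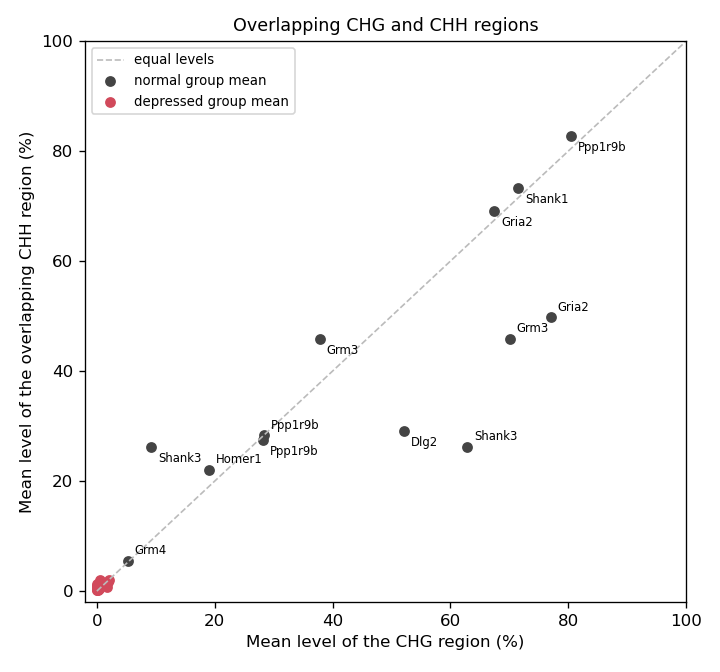
Level of the CHG region (horizontal axis, percent) against the level of the CHH region that overlaps it (vertical axis, percent), for the 13 overlapping pairs of the members, each labelled at its normal value. Normal means lie near the dashed line of equal levels in 7 pairs and farther from it, on either side, in the others, and depressed means of all pairs lie at or under 2.11% on both axes.

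Many of the lower regions touched gene ends or CpG islands, the dense clusters of CG sites found at many promoters, or the flanking sequence called shores. Among the 20 that were lower in CHG, 7 touched a 3′ UTR, 4 a promoter and 11 a CpG island or its shore (55.0%, compared with 20.5% of all lower CHG regions). Among the 14 in CHH context, 4 touched a 3′ UTR, 4 a promoter and 6 an island or shore (42.9%, compared with 16.6% in the list). A 3′ UTR was touched by 35.0% of the members' lower CHG regions, compared with 47.7% of all. In CHH context it was touched by 28.6%, compared with 43.0% of all. A promoter was touched by 4 of the 20 in CHG context, compared with 16.2% of all lower CHG regions. In CHH context a promoter was touched by 28.6%, compared with 15.1% of all. Shares at 3′ UTRs were thus below those of the list, and shares at promoters above, in CHG context only slightly. The contexts are not separate counts. The 4 CHG regions at promoters overlap the 4 in CHH context, in Gria2, Homer1 and Ppp1r9b alone. The 4 CHH regions at 3′ UTRs likewise overlap CHG regions counted there. None of these differences was tested. Medians were 0.255% against 31.5% over the 34 lower CHG and CHH regions, where the list had 0.473% against 28.3% over all 3130.

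The higher CHH regions had medians of 4.64% against 0.831%, where the list had 4.76% against 0.769% over all 5528. A repeat was touched by 16 of the 33 (48.5%, compared with 62.6% of the list). The satellite IMPB_01 was named in 4 (12.1%, compared with 13.7%), in Gria2, Gria4, Grid1 and Dlgap1, and the retroviral RLTR31D_MM in 3 (9.09%, compared with 6.42%), in Gria3, Grid1 and Grm7. They also held more cytosines per length. A higher CHH region had a median of 50.3 counted CHH cytosines per 100 bp and a lower one 24.2, where the list had 50.0 and 21.2.

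Gene length went with the higher regions. Across the 37 members, Spearman's rho between span and the number of higher CHH regions was 0.69, and it was -0.11 for lower CHG and CHH regions. Over all protein-coding genes these were 0.34 and 0.19. They are descriptions across genes, which are not independent replicates. The 16 members with a higher CHH region had a median span of 411 kb, the 10 with lower regions alone 67.1 kb, and the 11 without a region 65.8 kb. Both kinds of region occurred in 7 genes (Gria2, Grik4, Grm3, Shank2, Dlg2, Dlgap1 and Homer1), at distances of 6.05 to 304 kb from each other.

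**Figure D5:**
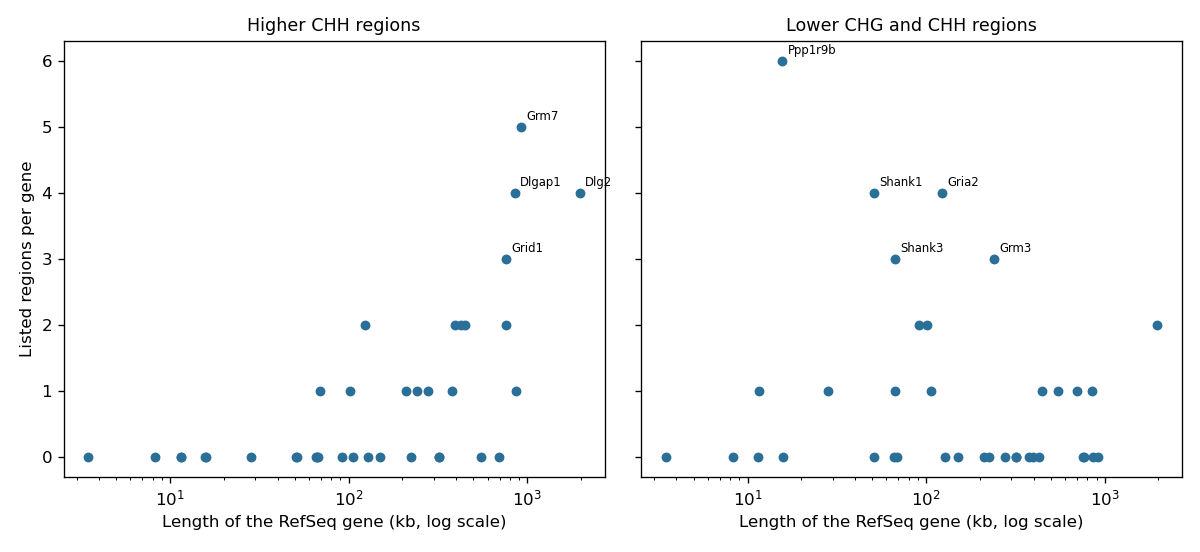
Number of listed regions per gene (vertical axis) against the span of the gene in RefSeq (horizontal axis, kb, log scale) for the 37 members, with higher CHH regions on the left and lower CHG and CHH regions on the right; genes with 3 or more are named. Grm7, with 5, leads on the left, and Ppp1r9b, with 6 in 15.7 kb, leads on the right.

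Other genes of the postsynaptic density were counted in the same way. Of 59 such genes, among them NMDA receptor subunits, AMPA receptor partners and kinases, 36 had a region (61.0%). This compares with 18.0% of all protein-coding genes and 55.9% of those of 100 kb or more. The lengths of the 59 genes were not taken into account. A lower CHG region was listed for 21 (35.6%, compared with 6.40% of all genes and 15.1% of long ones). A lower CHH region was listed for 20 (33.9%, compared with 5.37% and 14.8%). A higher CHH region was listed for 16 (27.1%, compared with 9.11% and 41.2%). A lower CG region was listed for 2 (3.39%, compared with 2.54% and 7.95%) and a higher CHG region for 1 (1.69%, compared with 0.758% and 1.48%). In the authors' deposited table, the strongest CHG statistics among them were at the 3′ UTRs of Nsf, the ATPase that takes apart SNARE complexes and binds GluA2 (0.505% against 40.8%), Camk2a, a kinase of synaptic plasticity (0.511% against 14.0%), and Rapgef4 (0.0817% against 39.4%). In CHH context they were at the 3′ UTRs of Nsf (0.632% against 53.1%) and Camk2a (0.369% against 43.1%), both lower, and in an intron of Cacng5, higher at 15.2% against 4.11%. The 3 CG regions lay in introns of Synpo (0.666% against 65.5%) and Grip1 (12.7% against 79.2% and 7.39% against 62.9%). No difference between these genes and the 37 members was tested.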

How the data were processed

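Bisulfite reads of 6 single embryos were processed by the authors, per the submitters' processing notes, with Trim Galore 0.3.3, Bismark and SAMtools on mm10. How regions were called, with which cut-offs and minimum coverage, and how embryos were pooled was not given in the sources used here. The deposited table gives, per the file headers, each region's mean methylation per group as a fraction from 0 to 1, multiplied to percent here, the difference of these means (depressed minus normal), and a region statistic, a score of the authors' caller. A region is repeated for each feature it touches, and 18732 entries gave 9707 regions. The members' 99 entries gave 68 regions, all with their midpoint in the RefSeq span of the gene and 0 of them listed for a gene outside the group.

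Genes and spans came from the RefSeq table of GRCm38.p6. Of 4040 gene names in the list, 3940 matched a protein-coding symbol or unique synonym, and a gene was called where it had at least 1 region. Overlap meant 1 bp or more. Counts were made with Python 3.11.15 and pandas 2.3.3, and the counting steps were tested on simulated data. Depth is unknown, so no interval or floor is given. There are no values per embryo, so no test, leave-one-out or batch check could be made. The rule for named genes took each member with a CG region or with 5 or more regions and the 10 strongest by absolute statistic per direction in CHG and CHH; the text gives values for every member with a region. Other postsynaptic genes were named by the 3 strongest absolute statistics per context. Members and lists were chosen with earlier results of these data known. Alternatives are described in the closing section.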

Additional observations from a re-analysis of the deposited data

How the results depend on the processing

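The number of members with a region, the counts per context and direction, and the shares by place were remade under 7 other settings, 1 at a time; the shares of exon or UTR regions and of other regions that were lower (96.9% and 11.1%) were added to these after seeing the data. Shares at islands, shares of all genes and levels were not remade. With group means at least 10 points apart, members with a region went from 26 to 15, higher CHH regions from 33 to 5, and their share in an exon or UTR from 3.03% to 0%, the lower share went from 96.9% to 100% in exons and UTRs and from 11.1% to 37.5% elsewhere, while lower CHG regions went only from 20 to 18 and lower CHH regions from 14 to 11. With at least 10 cytosines, lower CG regions were 0 and lower CHG regions 10. With an absolute statistic at or above the median of its context, members with a region were 16, lower CHG regions 11, lower CHH regions 6 (100% in an exon or UTR, against 85.7%) and higher CHH regions 15 (0%), and 100% of exon or UTR regions were lower. Without chromosomes 9 and 10 the CG count was 0. Without regions that touch a repeat it was 0 too, higher CHH regions were 17 (0% in an exon or UTR), and 100% of exon or UTR regions were lower. These settings keep fewer regions by construction. Midpoints inside the RefSeq span and merging within 1 kb left all 10 counts and shares within their limits of 1.5 times or the interval of the share, and an overlap of 50% left the 11 overlapping CHH regions at 11. No paired analysis was possible because the table holds no values per embryo, and the 2 replicate numbers shared by the groups could not be used. Leaving out an embryo was not possible for the same reason. Depth is unknown, so how precise a level is could not be told. Regions with 4 or 5 cytosines, such as those of Grik4 and Grm5, rest on few sites.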
